A study of Mus musculus with 24 samples.

Results

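The splicing factors and RNA-binding regulators described here are the probe sets annotated to a single mouse symbol that starts with Snrp, Sf3, U2af, Srsf, Hnrnp, Celf, Mbnl, Ptbp or Elavl. There were 74 such probe sets for 54 genes among the 12422 probe sets of the array that were not controls, which name 8251 genes by a single symbol. The general splicing parts (Snrp, Sf3, U2af, Srsf and Hnrnp) held 61 probe sets for 44 genes. The muscle splicing regulators (Celf, Mbnl, Ptbp and Elavl) held 13 probe sets for 10 genes. C2C12, an established mouse myoblast line that fuses into myotubes, was followed through differentiation, with total RNA hybridised to Affymetrix MG_U74Av2 arrays. There were 24 arrays, 3 on each of 8 days counted from the addition of differentiating medium. Cells on days -2 and -1 were labelled as proliferating and cells on day 0 as confluent. Those on days 2, 4, 6, 8 and 10 had spent that many days in differentiating medium. All groups were of the same unmodified line, and the labels do not say if the replicates of a day came from separate cultures, so the p-values reflect array spread that may be technical.

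Introns are removed by the spliceosome, which is built from small nuclear ribonucleoproteins. The Snrp genes encode their proteins, the Sf3 genes encode the SF3a and SF3b subunits of the U2 particle that holds the branch point, and the U2af genes encode the factor that marks the 3′ splice site. SR proteins (Srsf) and hnRNP proteins (Hnrnp) bind the transcript and promote or repress the use of nearby splice sites. CELF and MBNL proteins oppose each other on many exons that switch during muscle development, PTB proteins (Ptbp) repress exons of differentiated cells, and ELAV proteins bind AU-rich messages. In muscle cells Elavl1, also called HuR, is known to stabilise the messages of Myod1 and Myog.

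Of the 74 probe sets, 65 for 51 genes had a mean intensity above 277.7, the 40th percentile of all values, on at least 1 day and were tested, and 58 of them were above it on all 8 days. The tested probe sets covered 57 general parts and 8 regulators. The 9 below the filter were 1 probe set each of Celf1, Elavl2, Elavl3, Elavl4, Hnrnpdl, Hnrnpu, Ptbp2, Snrpb and Srsf1. Elavl2, Elavl3 and Elavl4, known for neurons, had no probe set above the filter, with 20, 22 and 19 of 24 arrays at the floor of 77, the 20th percentile, to which lower values were raised. Ptbp1, Mbnl2 and Mbnl3 were not analysed here. Intensities are on a linear scale, made comparable between arrays by the authors. They may be compared for 1 probe set across days but not between probe sets, and they do not tell the splice forms of a message apart.

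The labelled state was checked on fixed marker lists. The summed intensity of 9 muscle markers was 147884 to 175625 on day 10 and 24087 to 25501 on day -2. That of 9 proliferation markers was 91995 to 101442 on day -2, 33048 to 39711 on day 0 and 21003 to 25621 on day 10. The proliferation list was thus lower at the end of the course, as were the general parts described below. The list summed to 38957 to 43286 on day 2, 17735 to 18575 on day 4 and 25517 to 27868 on day 6. The median log2 intensity of general parts relative to day -2 was -0.43 to -0.14 on the arrays of day 0. It was -0.53 to -0.41 on those of day 2, -0.92 to -0.80 on day 4 and -0.79 to -0.63 on day 6. The sums are linear and the medians are on the log2 scale, so the sizes of their steps cannot be compared. The part of the proliferation list in the change of the general parts was not tested. The neural list (8 of 8 on the array) summed to 12821 to 14936 on day 10 and 18606 to 22703 on day -2, with Map2 and Snap25 at the floor on all day 10 arrays and Snap25 and Syp on all day -2 arrays. Fibroblast markers (6 of 6) summed to 56504 to 70590 on day 10 and 26069 to 29081 on day -2, with Thy1 at the floor on every day. On day 0 the fibroblast sum was 43414 to 46654, and on day 2 it was 30506 to 32578. Adipocyte markers (5 of 7 on the array) were highest on day 0, with a sum of 6588 to 6785, against 1784 to 2387 on day -2, 1657 to 2139 on day 2 and 3524 to 3918 on day 10. Macrophage markers (5 of 6) summed to between 370 and 1073 over all arrays, and endothelial markers (4 of 4) to between 217 and 1394. The part of these lists in the results was not tested. The 3′ to 5′ signal ratios were 0.764 to 0.954 for Gapdh and 1.011 to 1.172 for beta-actin over all arrays. For beta-actin they were 1.114 to 1.172 on day 4 and 1.016 to 1.103 on day 2, and the part of this in the changes between those days was not tested. In these bulk samples, fewer cells of a type and less RNA per cell cannot be told apart.

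Most general splicing parts were lower on day 10 than on day -2. Between day 10 and day -2, 42 of 57 general probe sets fell and 1 rose, with a median log2 change of -0.89. Of the 8 regulator probe sets, 3 fell and 1 rose, with a median of -0.46. The regulator median moved with the batch setting: it was -0.79 in the largest chip lot alone, where the general median was -0.96, and -0.81 between the 2 arrays of 1 scan day, where the general median was -0.78. The difference between general parts and regulators was not tested. In all, 47 of 65 members were called at an adjusted p under 0.05, against 44.6% of all 8484 tested probe sets (limma, Benjamini-Hochberg adjustment over all of them). The share called was high throughout the array, and it was split evenly there: 22.3% of all tested probe sets were lower and 22.2% higher, around a median of 0.04. Of the 47 called, 95911_at of Hnrnpab, 160141_r_at of Srsf1 and 93147_f_at of Celf4 were above the filter on 4 days or fewer, all of them early and high, with day 10 means of 124.7, 187.4 and 200.1, so their falls are a description. With no filter, 47 of all 74 members were called, 45 of them lower. Counted once per gene, by the brightest probe set, 37 of 51 genes fell and 1 rose. The shares of all tested probe sets above, 22.3% lower and 22.2% higher, are with the filter and not per gene. Some difference among the 8 days was called for 50 of 65 members (moderated F test), against 55.1% of all tested probe sets. The general parts supplied 45 of these 50 and the regulators 5. The daily mean was highest on day -2 for 33 of the 65 members, compared with 19.6% of all tested probe sets. It was lowest on day 4, 8 or 10 for 15, 15 and 19 members, compared with 10.3%, 11.6% and 12.4% of all tested probe sets.

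**Figure D1:**
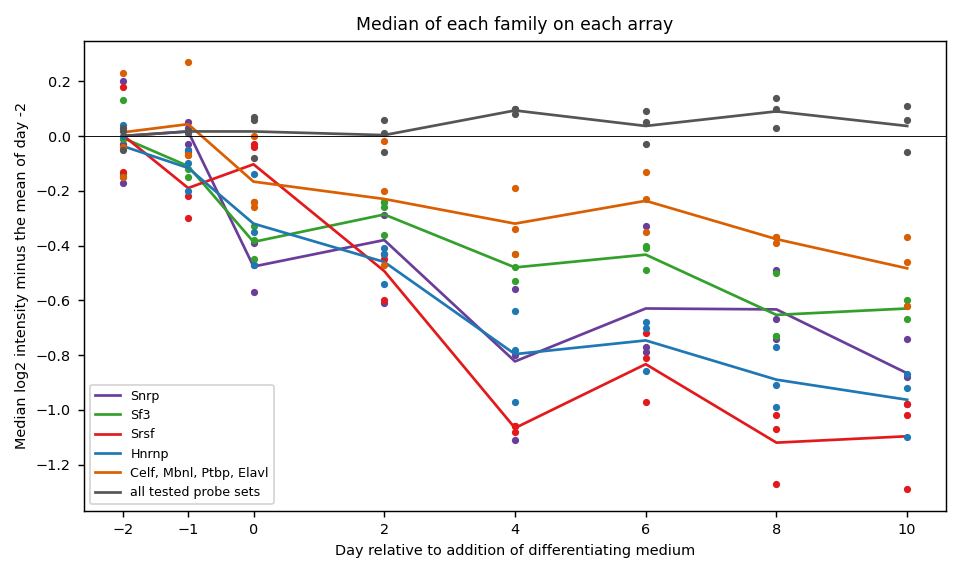
Median log2 intensity of the tested probe sets of each family on each array, minus the day -2 mean of each probe set (vertical axis), by day (horizontal axis); points are single arrays and lines join the means of 3 arrays. On the 3 arrays of day 10 the Srsf median lay between -1.29 and -0.98 and the regulator median between -0.62 and -0.37, while the median of all tested probe sets stayed between -0.06 and 0.11.

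**Figure D2:**
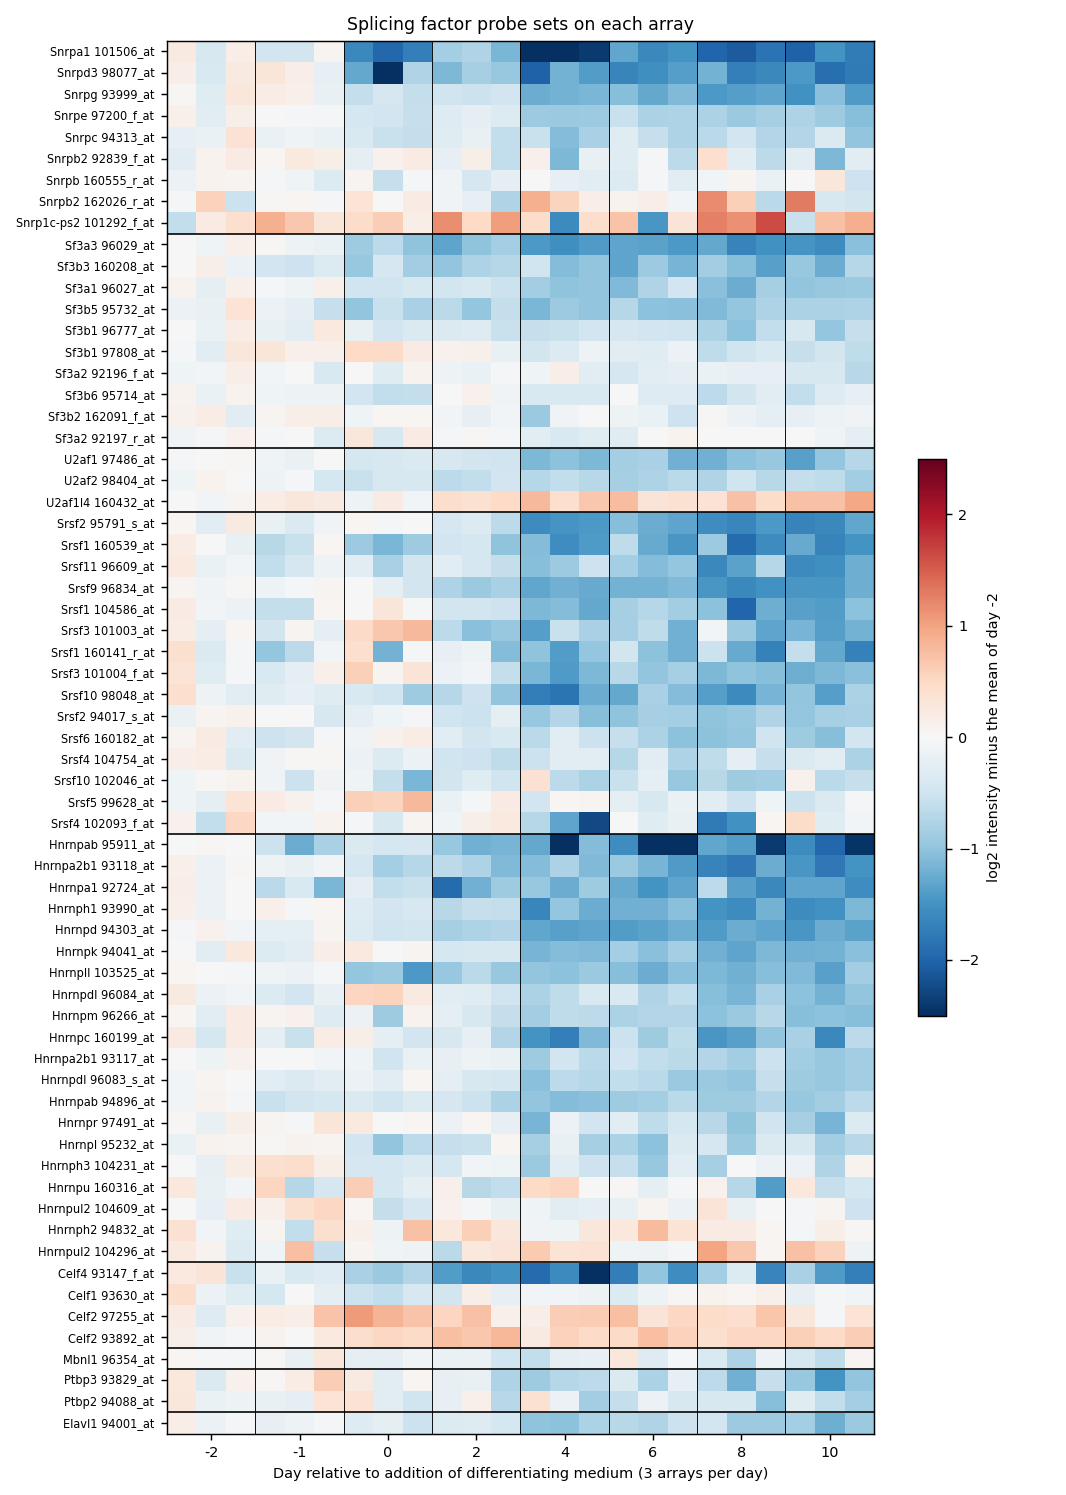
The 65 tested splicing factor probe sets (vertical axis, by family, then by change on day 10) on the 24 arrays (horizontal axis, 3 per day); colour is the log2 intensity minus the day -2 mean, with colours ending at 2.5 in either direction. Most general parts turn blue (lower) by day 4. Among the rows that turn red (higher) are U2af1l4, both Celf2 probe sets and, on day 8, Snrp1c-ps2, which had no called difference among the days. Celf2 on 97255_at was only 0.19 above day -2 on day 10, which was not called.

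By family, the fall on day 10 against day -2 was called for 12 of 15 Srsf probe sets (median log2 change -1.13), 15 of 20 Hnrnp (-0.96), 8 of 10 Sf3 (-0.60) and 5 of 9 Snrp (-0.69). Of the 3 U2af probe sets 2 fell and 1 rose. Members not called included Snrpb, both probe sets of Snrpb2 and of Hnrnpul2, Hnrnph2, Hnrnph3, Hnrnpu, Sf3b2 and the pseudogene Snrp1c-ps2.

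**Figure D3:**
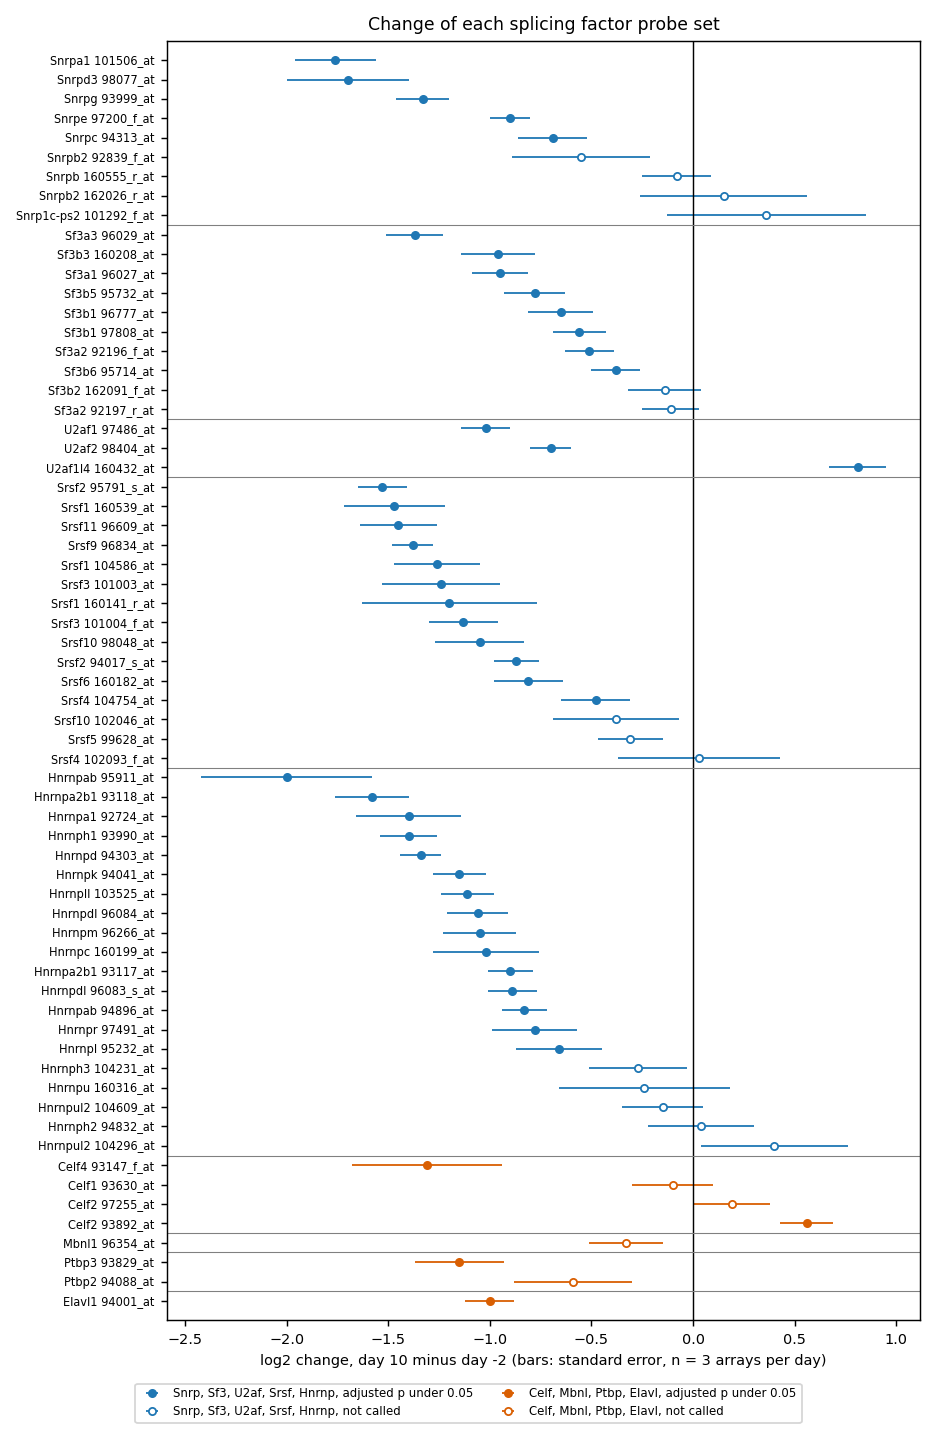
Log2 change of each tested splicing factor probe set, day 10 minus day -2 (horizontal axis), with its standard error (3 arrays per day); blue points are general parts, orange points regulators, filled points have an adjusted p under 0.05. The changes run between -2.00 for Hnrnpab and 0.81 for U2af1l4, and 45 of the 47 filled points lie below 0.

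Promoter sequences are shown as a description, among them those of U2af1 and its paralog U2af1l4, which moved in opposite directions. Entries were found in RefSeq (mouse build GRCm38.p6) for 46 of the 54 member genes, as 70 promoters, since several genes have more than 1 start. The 250 bases before each start were searched on both strands for 8 short motifs, which are named here with the share of promoters that held them among 49 of general parts, 21 of regulators and all 32851 in the table. The ETS site CCGGAAG was in 32.7% of general promoters, 0% of regulator promoters and 6.91% of all. The GC box GGGCGG was in 69.4%, 52.4% and 32.7%, and the CCAAT box, searched as CCAAT, in 44.9%, 52.4% and 33.8%. An E2F site written TTTCCCGC was in 10.2%, 4.76% and 0.895%, and its other form TTTGGCGC in 0%, 0% and 0.417%. The E-box CAGCTG, known for myogenic factors, was in 10.2%, 14.3% and 13%, and the E-box CACGTG, known for Myc, in 2.04%, 4.76% and 6.02%. The cAMP response element TGACGTCA was in 2.04%, 0% and 1.55%. Matches of the GC box and of the first E2F form can overlap. Of the 42 promoters of members called lower on day 10 than on day -2, the ETS site was in 28.6% and the GC box in 69%. The CCAAT box was in 47.6% of these and the first E2F form in 11.9%. Whether any motif bears on the changes was not tested. A match is a run of letters and not a shown binding site, and promoters of 1 gene can share sequence. The 5 promoters below run 5′ to 3′ on the strand of the gene and end just before 1 of its annotated starts, with every match in capitals. For Srsf1, Srsf10 and U2af1 this start lies inside the outer bounds of the gene. For Sf3a3 and U2af1l4 it is the outer start. Sf3a3 holds the ETS site, Srsf1 and U2af1 hold GC boxes with the first E2F form, Srsf10 holds the first E2F form 3 times, and U2af1l4 holds none of the 8 motifs in this window.
Sf3a3 (chr4:124714611-124714860, plus strand): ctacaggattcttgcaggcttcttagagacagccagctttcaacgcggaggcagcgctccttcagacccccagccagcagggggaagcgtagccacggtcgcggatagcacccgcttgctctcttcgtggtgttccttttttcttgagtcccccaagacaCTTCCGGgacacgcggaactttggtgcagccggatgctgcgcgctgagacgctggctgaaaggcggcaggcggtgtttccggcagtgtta
Srsf1 (chr11:88047123-88047372, plus strand): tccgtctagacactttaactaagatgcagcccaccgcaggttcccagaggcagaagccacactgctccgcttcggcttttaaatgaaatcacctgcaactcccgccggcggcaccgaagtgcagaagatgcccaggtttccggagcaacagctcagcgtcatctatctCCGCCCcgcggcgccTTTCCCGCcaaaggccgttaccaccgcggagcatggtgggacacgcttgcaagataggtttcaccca
Srsf10 (chr4:135855821-135856070, plus strand): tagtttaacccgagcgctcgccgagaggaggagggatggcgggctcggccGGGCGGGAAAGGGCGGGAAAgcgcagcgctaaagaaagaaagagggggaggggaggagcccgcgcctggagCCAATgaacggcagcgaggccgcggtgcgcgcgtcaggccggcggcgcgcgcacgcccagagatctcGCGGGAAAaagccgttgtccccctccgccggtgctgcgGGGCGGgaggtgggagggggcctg
U2af1 (chr17:31658755-31659004, minus strand): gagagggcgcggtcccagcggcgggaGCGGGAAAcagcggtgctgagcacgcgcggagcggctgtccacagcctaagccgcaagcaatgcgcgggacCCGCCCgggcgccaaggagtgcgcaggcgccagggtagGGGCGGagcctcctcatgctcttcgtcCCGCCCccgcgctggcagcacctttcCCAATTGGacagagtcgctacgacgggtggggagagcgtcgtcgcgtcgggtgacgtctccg
U2af1l4 (chr7:30563090-30563339, plus strand): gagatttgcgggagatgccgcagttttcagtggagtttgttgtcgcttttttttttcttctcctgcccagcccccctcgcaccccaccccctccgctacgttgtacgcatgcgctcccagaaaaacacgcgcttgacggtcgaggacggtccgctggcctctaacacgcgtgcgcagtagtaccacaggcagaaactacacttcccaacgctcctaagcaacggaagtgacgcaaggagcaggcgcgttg

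Among the proteins of the small nuclear ribonucleoproteins, Snrpa1, Snrpd3, Snrpg, Snrpe and Snrpc were lower on day 10 than on day -2. Snrpa1 encodes the U2 A′ protein, Snrpd3, Snrpe and Snrpg are members of the Sm ring, and Snrpc belongs to the U1 particle. Snrpa1 (probe set 101506_at) had the widest course of these. Its intensities were 2656.9, 1734.9 and 2553.8 on day -2, 1635.3, 1663.0 and 2396.2 on day -1, 749.2, 580.2 and 699.1 on day 0, 1262.2, 1357.8 and 1035.5 on day 2, 320.8, 349.4 and 432.4 on day 4, 929.7, 745.5 and 802.4 on day 6, 578.6, 536.8 and 635.2 on day 8, and 557.8, 803.4 and 674.5 on day 10. It was low on all 3 arrays of day 0, higher on day 2 and lowest on day 4, and no array from day 0 on reached the lowest array of day -2. The change was -1.76 ± 0.20 (log2, standard error, n = 3 per day, as for all changes below) on day 0 against day -2 (limma adjusted p = 2.78e-07). It was 0.85 ± 0.20 on day 2 against day 0 (adjusted p = 0.00309) and -1.76 ± 0.20 on day 10 against day -2 (adjusted p = 1.35e-07). A further step upward, 1.17 ± 0.20 on day 6 against day 4, was the only member called between those days (adjusted p = 0.00665). That call was lost without replicate 1 of day 6 and with scan day as a fixed factor. Snrpd3 (98077_at) had intensities of 4519.4, 3082.4 and 4669.3 on day -2, 4969.2, 4491.9 and 3473.4 on day -1, 1663.2, 677.9 and 2386.2 on day 0, 1849.7, 2268.5 and 2079.0 on day 2, 992.7, 1781.8 and 1529.7 on day 4, 1286.2, 1381.5 and 1541.8 on day 6, 1782.6, 1223.8 and 1318.1 on day 8, and 1480.6, 1088.1 and 1183.5 on day 10. Every array from day 0 on lay below all arrays of days -2 and -1, and replicate 2 of day 0 stood apart at 677.9. Snrpd3 changed by -1.53 ± 0.30 on day 0 against day -2 (adjusted p = 3.30e-04), by -1.01 without that array (adjusted p = 0.00227), by -0.73 with scan day as a fixed factor (adjusted p = 0.388), and by -1.70 ± 0.30 on day 10 against day -2 (adjusted p = 6.49e-05). Snrpg (-1.33 ± 0.13), Snrpe (-0.90 ± 0.10) and Snrpc (-0.69 ± 0.17) also fell on day 10 against day -2, with adjusted p of 1.47e-08, 5.59e-08 and 0.00185.

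Within the SF3 complexes, Sf3a3 fell by 1.37 ± 0.14 on the log2 scale, day 10 against day -2 (adjusted p = 2.49e-08), Sf3b3 by 0.96 ± 0.18 (7.88e-05), Sf3a1 by 0.95 ± 0.14 (4.62e-06) and Sf3b5 by 0.78 ± 0.15 (1.72e-04). Sf3b1, which contacts the branch point region, has a pair of probe sets that fell by 0.65 ± 0.16 and 0.56 ± 0.13. They differed on day 0: 97808_at was higher than on day -2 (0.39 ± 0.13, adjusted p = 0.0255), and 96777_at had a change of -0.34 that was not called. The intensities of 97808_at were 3498.3, 2984.2 and 4345.9 on day -2, 4424.8, 3872.3 and 3871.7 on day -1, 5026.9, 4949.6 and 4092.7 on day 0, 3839.4, 3881.4 and 3140.8 on day 2, 2590.9, 2829.7 and 3249.8 on day 4, 2975.6, 2884.0 and 3210.1 on day 6, 2292.4, 2530.5 and 2733.6 on day 8, and 2376.4, 2611.6 and 2298.8 on day 10. Arrays of day 0 and day -2 overlapped, and the 3 arrays of day 10 lay below all of both days. The rise on day 0 was lost when any of 4 arrays was left out, and its sign turned with scan day as a fixed factor. Sf3b6 (95714_at), a small SF3b subunit, had intensities of 5988.0, 5027.9 and 5998.3 on day -2, 5264.3, 5165.8 and 5165.1 on day -1, 4067.1, 3705.9 and 3745.4 on day 0, 5692.5, 6075.2 and 5312.8 on day 2, 4330.0, 4318.5 and 4332.4 on day 4, 5652.5, 4494.3 and 4539.7 on day 6, 3576.6, 4107.7 and 4715.7 on day 8, and 3709.8, 4524.8 and 4917.7 on day 10. It was low on day 0 (-0.56 ± 0.12, adjusted p = 5.80e-04), higher on day 2 than on day 0 (0.57 ± 0.12, adjusted p = 7.86e-04), and lower on day 10 than on day -2 (-0.38 ± 0.12, adjusted p = 0.0111). The last of these missed the threshold without replicate 1 of day 10 (-0.26, adjusted p = 0.0951).

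The U2af genes went in opposite directions. U2af1 (97486_at), the small subunit that reads the AG of the 3′ splice site, fell by 1.02 ± 0.12 on the log2 scale on day 10 against day -2 (adjusted p = 2.62e-07), and U2af2, the large subunit that binds the pyrimidine tract, fell by 0.70 ± 0.10 (adjusted p = 3.97e-06). U2af1l4 (160432_at), a paralog of the small subunit, had intensities of 1495.3, 1427.5 and 1556.6 on day -2, 1693.5, 1823.0 and 1738.8 on day -1, 1360.4, 1724.4 and 1425.7 on day 0, 2015.2, 1943.5 and 2112.1 on day 2, 2619.4, 2005.9 and 2365.4 on day 4, 2542.4, 1872.0 and 1936.9 on day 6, 1924.5, 2467.1 and 2053.6 on day 8, and 2475.1, 2481.0 and 2901.1 on day 10. All arrays of days 2 to 10 lay above all arrays of days -2, -1 and 0. U2af1l4 rose by 0.44 ± 0.14 on day 2 against day 0 (adjusted p = 0.0238), a call that was lost without any 1 of 4 of the 6 arrays concerned, and by 0.81 ± 0.14 on day 10 against day -2 (adjusted p = 3.41e-05). It was the only general part called higher in that comparison. The promoters of U2af1 and U2af1l4 printed above hold 6 matches of the motifs for U2af1 and 0 for U2af1l4. Each is for 1 start, inside the gene bounds for U2af1 and at the outer start for U2af1l4, so the counts are of unlike windows. A link of these matches to the changes was not tested.

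Of the 15 probe sets of SR protein genes, 2 fell and 1 rose on day 0 against day -2, when 16.1% of all tested probe sets fell and 16.5% rose. On day 2 against day 0, 5 fell (10.4% of all tested probe sets), and 7 fell on day 10 against day 2 (7.26%). Srsf2 (95791_s_at), which binds exonic enhancers, had intensities of 11137.4, 8992.9 and 12615.2 on day -2, 9478.5, 8446.3 and 10173.4 on day -1, 11145.4, 10658.4 and 10957.8 on day 0, 8093.6, 8508.5 and 6868.9 on day 2, 3645.4, 3885.5 and 4008.5 on day 4, 5182.9, 4559.6 and 4325.6 on day 6, 3706.5, 3502.0 and 3997.8 on day 8, and 3388.1, 3526.8 and 4407.0 on day 10. Arrays of day 0 lay within the range of day -2, and all arrays from day 4 on were below all earlier ones. The changes were 0.01 ± 0.12 on day 0 against day -2 (adjusted p = 0.956), -0.49 ± 0.12 on day 2 against day 0 (adjusted p = 0.00463) and -1.06 ± 0.12 on day 10 against day 2 (adjusted p = 2.17e-06). Over the whole course Srsf2 fell 2.88-fold (-1.53 ± 0.12, adjusted p = 3.21e-10) by this probe set and by 0.87 ± 0.11 on the log2 scale by 94017_s_at.

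Srsf3, the smallest SR protein and also known for export of messages, has probe sets 101004_f_at and 101003_at. Both fell on day 2 against day 0 and on day 10 against day -2, but they differed after day 2. The brighter one, 101004_f_at, had intensities of 4378.1, 2791.9 and 3348.9 on day -2, 2639.7, 2951.0 and 3767.1 on day -1, 5195.6, 3631.3 and 4305.1 on day 0, 3127.7, 3292.9 and 2266.1 on day 2, 1558.1, 1300.2 and 1583.8 on day 4, 2127.8, 1731.4 and 1950.8 on day 6, 1582.7, 1721.9 and 1639.5 on day 8, and 1482.8, 1574.5 and 1665.0 on day 10. The days up to 0 overlapped, day 2 overlapped with day -2, and every array from day 4 on was below all earlier arrays. This probe set fell by 0.60 ± 0.17 on day 2 against day 0 (adjusted p = 0.0128), by 0.86 ± 0.17 on day 10 against day 2 (adjusted p = 0.00121) and by 1.13 ± 0.17 on day 10 against day -2 (adjusted p = 7.86e-06), all on the log2 scale. The first of these calls was lost without replicate 1 of day 0 (-0.47, adjusted p = 0.0889) or replicate 3 of day 2 (-0.43, adjusted p = 0.106). The dimmer one, 101003_at, had intensities of 636.3, 474.9 and 578.8 on day -2, 407.0, 586.2 and 473.1 on day -1, 776.3, 892.8 and 985.6 on day 0, 356.8, 272.5 and 288.9 on day 2, 214.3, 382.0 and 320.1 on day 4, 313.9, 357.8 and 244.8 on day 6, 534.3, 292.3 and 223.2 on day 8, and 250.4, 214.9 and 245.4 on day 10. Its 3 arrays of day 0 were the highest of all 24. It fell 2.90-fold on day 2 against day 0 (-1.53 ± 0.29, adjusted p = 3.19e-04), and its change on day 0 against day -2 was 0.66 ± 0.29 (adjusted p = 0.0939). On day 10 against day 2 it changed by -0.36, which was not called.

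Srsf5 (99628_at), an SR protein gene known for quick responses to growth signals, rose and then returned. The sums of the adipocyte and fibroblast markers, though not every marker, were also higher on day 0 than on days -2 and 2. Their part in the day 0 values of Srsf5, Srsf3 and Hnrnpdl was not tested. The arrays of day 0 also shared no scan day with those of days -2 and -1, so day 0 and its scan days cannot be fully told apart there. The intensities of Srsf5 were 5841.6, 5383.7 and 8068.3 on day -2, 7273.8, 6814.7 and 6187.3 on day -1, 9513.2, 9318.7 and 11029.8 on day 0, 5674.2, 6121.3 and 7254.1 on day 2, 4564.7, 6504.9 and 6671.9 on day 4, 5364.6, 4804.7 and 5666.1 on day 6, 5200.9, 4438.0 and 5873.3 on day 8, and 4368.3, 4912.3 and 6189.3 on day 10. All 3 arrays of day 0 lay above the other 21. Srsf5 rose by 0.65 ± 0.16 on day 0 against day -2 (adjusted p = 0.00297) and fell by 0.65 ± 0.16 on day 2 against day 0 (adjusted p = 0.0045). On day 10 against day -2 the change was -0.31 ± 0.16 (adjusted p = 0.129). Srsf11 (96609_at), an SR-related protein gene, had intensities of 7882.9, 5900.0 and 6309.9 on day -2, 4338.9, 4980.3 and 6119.8 on day -1, 5561.3, 3814.4 and 4862.2 on day 0, 5438.3, 4955.0 and 4385.6 on day 2, 3197.5, 3557.9 and 4634.5 on day 4, 3704.2, 3149.8 and 3403.6 on day 6, 2160.7, 2640.7 and 4065.5 on day 8, and 2216.8, 2305.2 and 2838.1 on day 10. The arrays of day 10 lay below all arrays of days -2, -1, 0 and 2. Srsf11 fell by 1.01 ± 0.19 on the log2 scale on day 10 against day 2 (adjusted p = 8.65e-04) and by 1.45 ± 0.19 on day 10 against day -2 (adjusted p = 1.48e-06).

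Srsf1, the founding SR protein, is represented by 3 tested probe sets. On day 10 against day -2 they changed by -1.47 ± 0.25 (160539_at), -1.26 ± 0.21 (104586_at) and -1.20 ± 0.43 (160141_r_at), all called. The last (adjusted p = 0.0252) was lost when any 1 of 4 of the 6 arrays concerned was left out, its F test over the 8 days was not passed (adjusted p = 0.109), and its daily mean was above the filter on days -2 to 2 alone. On day 0 against day -2 the change was called for 160539_at alone (-0.98 ± 0.25, adjusted p = 0.00306), and the others reached up to 0.09. The intensities of 160539_at were 3380.9, 2966.9 and 2590.7 on day -2, 1828.3, 2018.9 and 3076.7 on day -1, 1587.4, 1341.2 and 1592.6 on day 0, 2132.0, 2196.2 and 1477.5 on day 2, 1389.0, 1015.5 and 1109.6 on day 4, 1911.1, 1233.1 and 1086.6 on day 6, 1587.5, 779.2 and 990.3 on day 8, and 1242.4, 935.9 and 1052.1 on day 10. The arrays of day 0 lay below those of days -2 and -1. Srsf9 (-1.38 ± 0.10), Srsf6 (-0.81 ± 0.17) and 1 of 2 probe sets each of Srsf10 (-1.05 ± 0.22) and Srsf4 (-0.48 ± 0.17) were also lower on day 10 than on day -2.

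**Figure D4:**
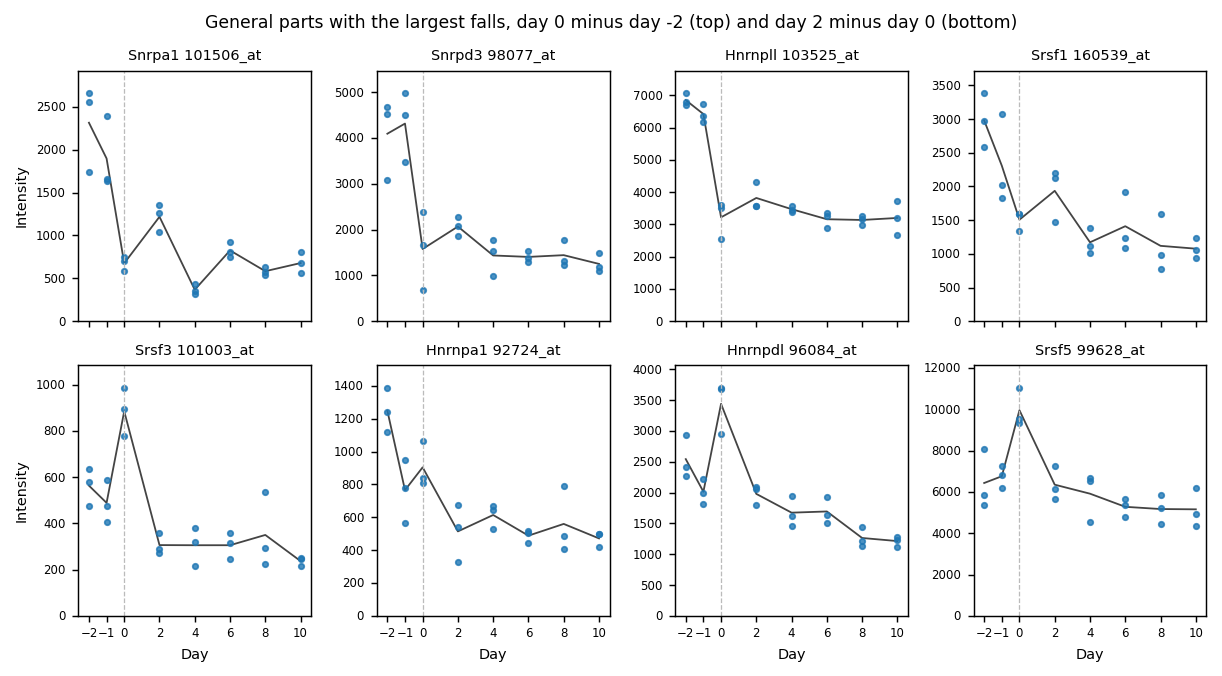
Intensity (vertical axis, linear, starting at 0) by day (horizontal axis; the dashed line marks the addition of differentiating medium) of the general parts with the largest called falls on day 0 against day -2 (top) and on day 2 against day 0 (bottom). Points are single arrays and lines join the means of 3. Snrpa1 dropped to between 580.2 and 749.2 on day 0, whereas Srsf5 stood between 9318.7 and 11029.8 on that day and between 5674.2 and 7254.1 on day 2.

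Hnrnpab, an hnRNP gene, has a pair of probe sets. The dimmer one, 95911_at, had intensities of 478.7, 490.6 and 479.3 on day -2, 332.7, 203.5 and 274.3 on day -1, 378.4, 356.2 and 362.0 on day 0, 249.7, 211.2 and 216.7 on day 2, 198.1, 24.5 and 228.7 on day 4, 165.4, 21.8 and 60.0 on day 6, 195.0, 184.5 and 91.6 on day 8, and 162.6, 123.7 and 87.8 on day 10. Some arrays of days 4 and 6 were under the floor of 77, but none of day 10 or day -2 was. The change on day 10 against day -2 was -2.00 ± 0.42 (adjusted p = 3.72e-04), and -0.80 with the floor raised to the 40th percentile. This probe set passed the filter only through its high days -2 and 0, so its fall is a description. The brighter probe set of Hnrnpab, 94896_at, changed by -0.83 ± 0.11 (adjusted p = 1.02e-06). Hnrnpa2b1, which packages nascent transcripts together with Hnrnpa1, had intensities of 1783.6, 1470.7 and 1676.1 on day -2, 1500.6, 1449.5 and 1554.6 on day -1, 1206.4, 907.2 and 1003.1 on day 0, 1034.4, 961.4 and 767.4 on day 2, 774.4, 952.1 and 766.1 on day 4, 855.7, 730.9 and 610.2 on day 6, 517.8, 475.9 and 692.6 on day 8, and 594.8, 473.6 and 583.2 on day 10 on 93118_at. Its arrays of day 10 lay below all arrays of days -2 to 4. It fell by 1.58 ± 0.18 on the log2 scale on day 10 against day -2 (adjusted p = 1.42e-07), and by 0.90 ± 0.11 on its brighter probe set 93117_at (adjusted p = 3.80e-07).

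Hnrnpa1 (92724_at), a repressor of many exons, had intensities of 1387.3, 1118.2 and 1242.0 on day -2, 777.4, 951.7 and 567.1 on day -1, 1062.7, 809.1 and 841.0 on day 0, 326.8, 539.4 and 676.6 on day 2, 642.9, 528.2 and 671.2 on day 4, 518.6, 444.4 and 501.9 on day 6, 789.1, 485.0 and 405.2 on day 8, and 496.2, 496.3 and 422.2 on day 10. The arrays of day 2 lay below those of day 0, with replicate 1 lowest. Hnrnpa1 fell by 0.87 ± 0.26 on the log2 scale on day 2 against day 0 (adjusted p = 0.0175), and the change was -0.57 without replicate 1 of day 2 (adjusted p = 0.152) and -0.74 without replicate 1 of day 0 (adjusted p = 0.0841). It fell by 1.40 ± 0.26 on day 10 against day -2 (adjusted p = 9.63e-05). Hnrnpdl (96084_at), a relative of Hnrnpd, had intensities of 2935.0, 2269.4 and 2419.4 on day -2, 1997.3, 1816.9 and 2224.3 on day -1, 3672.4, 3694.6 and 2946.6 on day 0, 2090.8, 2050.7 and 1791.2 on day 2, 1457.4, 1619.0 and 1943.1 on day 4, 1928.7, 1509.2 and 1640.0 on day 6, 1207.7, 1136.1 and 1443.8 on day 8, and 1236.3, 1118.2 and 1282.7 on day 10. All 3 arrays of day 0 lay above all other arrays. Hnrnpdl rose by 0.44 ± 0.15 on day 0 against day -2 (adjusted p = 0.0227), which was lost without any 1 of 4 of the 6 arrays concerned and turned its sign with scan day as a fixed factor. It fell by 0.79 ± 0.15 on day 2 against day 0 (adjusted p = 2.27e-04) and by 1.06 ± 0.15 on day 10 against day -2 (adjusted p = 1.96e-06).

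Hnrnpll (103525_at), known for the switch of CD45 splice forms in lymphocytes, fell in a single step. Its intensities were 7059.9, 6801.1 and 6697.3 on day -2, 6366.2, 6164.4 and 6729.1 on day -1, 3511.2, 3607.6 and 2543.4 on day 0, 3575.2, 4322.4 and 3564.1 on day 2, 3462.4, 3376.9 and 3580.3 on day 4, 3261.2, 2883.6 and 3338.8 on day 6, 3163.7, 2989.2 and 3262.1 on day 8, and 3198.2, 2677.5 and 3727.2 on day 10. Every array from day 0 on lay below all arrays of days -2 and -1. Hnrnpll fell by 1.11 ± 0.13 on the log2 scale on day 0 against day -2 (adjusted p = 2.51e-07) and was 1.11 ± 0.13 lower on day 10 than on day -2 (adjusted p = 1.17e-07). Hnrnph1 (-1.40 ± 0.14), Hnrnpd (-1.34 ± 0.10), Hnrnpk (-1.15 ± 0.13), Hnrnpm (-1.05 ± 0.18) and Hnrnpc (-1.02 ± 0.26) also changed by more than 1 log2 unit between day 10 and day -2. Their adjusted p values were 1.27e-08, 6.24e-11, 9.64e-08, 3.13e-05 and 0.00222.

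Among the regulators, Celf2 rose by day 0 on both of its probe sets and was called higher on day 10 on 1 of them. Elavl1, Ptbp3 and Celf4 fell, and Celf1, Mbnl1 and Ptbp2 had no called difference among the 8 days. Celf2 was measured by a pair of probe sets. The first, 93892_at, had intensities of 940.2, 795.8 and 822.7 on day -2, 900.5, 855.8 and 1009.7 on day -1, 1150.5, 1218.9 and 1180.2 on day 0, 1431.7, 1350.9 and 1519.5 on day 2, 989.6, 1270.6 and 1187.4 on day 4, 1185.3, 1441.5 and 1268.0 on day 6, 1116.6, 1214.5 and 1224.1 on day 8, and 1286.4, 1180.3 and 1308.0 on day 10. All arrays from day 0 on except replicate 1 of day 4 lay above all arrays of days -2 and -1. It rose by 0.48 ± 0.13 on day 0 against day -2 (adjusted p = 0.00717) and by 0.56 ± 0.13 on day 10 against day -2 (adjusted p = 0.00124). The later call was lost in the fit of the largest chip lot alone (0.33). The other, 97255_at, had intensities of 2034.7, 1409.4 and 1885.5 on day -2, 2007.8, 1972.5 and 2864.4 on day -1, 3656.9, 3160.2 and 2885.6 on day 0, 2539.6, 2928.6 and 1928.3 on day 2, 1968.3, 2695.2 and 2731.2 on day 4, 2949.3, 2185.6 and 2499.4 on day 6, 2418.1, 2358.6 and 2853.5 on day 8, and 2126.4, 1703.2 and 2216.6 on day 10. Its arrays of day 0 were above all arrays of days -2 and -1, and day 10 overlapped with day -2. It rose by 0.87 ± 0.19 on day 0 against day -2 (adjusted p = 6.96e-04), and had a change of 0.19 ± 0.19 on day 10 against day -2 (adjusted p = 0.452). With scan day as a fixed factor neither probe set was called on day 0 against day -2, with a change of 0.31 on 97255_at.

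Elavl1 (94001_at) had intensities of 8782.5, 7117.5 and 7716.1 on day -2, 6779.5, 7155.6 and 7597.4 on day -1, 6304.0, 6600.0 and 5427.0 on day 0, 6220.8, 6254.4 and 5814.2 on day 2, 3902.0, 3850.8 and 4511.3 on day 4, 4842.0, 4684.0 and 5433.3 on day 6, 5623.3, 4190.4 and 4178.7 on day 8, and 4356.1, 3358.2 and 4116.5 on day 10. All arrays from day 4 on lay below all arrays of days -2 to 2 except replicate 3 of day 6 and replicate 1 of day 8. Elavl1 fell by 0.36 ± 0.12 on the log2 scale on day 0 against day -2 (adjusted p = 0.0247), by 0.64 ± 0.12 on day 10 against day 2 (adjusted p = 9.11e-04) and by 1.00 ± 0.12 on day 10 against day -2 (adjusted p = 4.01e-07). The first of these missed the threshold without replicate 1 of day -2 (-0.28, adjusted p = 0.134) or without replicate 3 of day 0 (-0.28, adjusted p = 0.136).

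Ptbp3 (93829_at), the PTB paralog also called ROD1, had intensities of 2613.3, 1692.3 and 2343.5 on day -2, 2224.0, 2477.8 and 3321.8 on day -1, 2532.5, 1817.6 and 2248.2 on day 0, 1889.7, 1906.9 and 1279.0 on day 2, 1170.2, 1335.2 and 1384.2 on day 4, 1708.5, 1252.0 and 1886.3 on day 6, 1390.9, 943.7 and 1455.6 on day 8, and 1126.0, 769.8 and 1100.3 on day 10. The arrays of day 10 lay below all of day -2 and below all of day 2. Ptbp3 fell by 0.76 ± 0.22 on the log2 scale on day 10 against day 2 (adjusted p = 0.0239), which was lost without replicate 1 or 2 of day 2 or replicate 2 of day 10. It fell by 1.15 ± 0.22 on day 10 against day -2 (adjusted p = 1.59e-04). Celf4 (93147_f_at), a CELF protein known from the brain, was dim. Its intensities were 568.3, 598.9 and 324.9 on day -2, 429.6, 370.9 and 385.5 on day -1, 275.1, 252.7 and 289.4 on day 0, 181.8, 156.9 and 167.0 on day 2, 125.7, 159.6 and 23.9 on day 4, 144.3, 241.0 and 163.6 on day 6, 266.8, 380.0 and 152.1 on day 8, and 273.6, 180.6 and 146.0 on day 10. Only replicate 3 of day 4 was under the floor, and all 3 arrays of day 10 were below those of day -2. Celf4 passed the filter only through days -2 and -1, where it is high, so its fall is a description. It was 2.48-fold lower on day 10 than on day -2 (-1.31 ± 0.37, adjusted p = 0.00543). The change was -0.79 with the floor at the 40th percentile, and the call was lost with scan day as a fixed factor.

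Celf1 (93630_at), known to bind GU-rich elements, had intensities of 1046.0, 689.5 and 625.2 on day -2, 566.7, 764.7 and 648.4 on day -1, 531.2, 497.6 and 580.5 on day 0, 559.4, 863.1 and 662.0 on day 2, 732.8, 730.4 and 705.9 on day 4, 603.6, 703.9 and 784.6 on day 6, 814.9, 788.3 and 838.4 on day 8, and 664.8, 750.0 and 729.2 on day 10. Replicate 1 of day -2 was the highest of the 24 arrays, and days -2 and 10 overlapped. Celf1 was called lower on day 0 than on day -2 (-0.52 ± 0.20, adjusted p = 0.0486), but the change was -0.29 without that array (adjusted p = 0.326), and the moderated F test over the 8 days was not passed (adjusted p = 0.242). Mbnl1 (96354_at), which promotes adult splice forms in muscle, had intensities of 6568.6, 6284.6 and 6283.5 on day -2, 6508.8, 5644.8 and 7804.1 on day -1, 5459.4, 5484.2 and 6022.4 on day 0, 5652.0, 5679.3 and 4514.4 on day 2, 4162.7, 5473.7 and 5519.0 on day 4, 7803.7, 5130.8 and 6133.0 on day 6, 4893.8, 3749.8 and 5739.7 on day 8, and 4692.6, 4125.9 and 6690.9 on day 10. Days -2 and 10 overlapped, and the change between them was -0.33 ± 0.18 (adjusted p = 0.142). Ptbp2 (94088_at), the PTB protein known from neurons, had intensities of 1472.5, 1067.3 and 1107.2 on day -2, 1058.4, 1032.4 and 1530.5 on day -1, 1537.0, 993.6 and 847.8 on day 0, 1049.4, 1322.0 and 742.2 on day 2, 1566.6, 1082.0 and 662.6 on day 4, 795.6, 1089.2 and 916.6 on day 6, 907.6, 910.3 and 573.5 on day 8, and 980.7, 783.5 and 669.1 on day 10. Its change on day 10 against day -2 was -0.59 ± 0.29 (adjusted p = 0.11), with a spread on days 0 and 4 as wide as the difference between days. For Mbnl1 and Ptbp2 the F test over the 8 days gave adjusted p of 0.14 and 0.354, which does not show that their messages were constant.

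**Figure D5:**
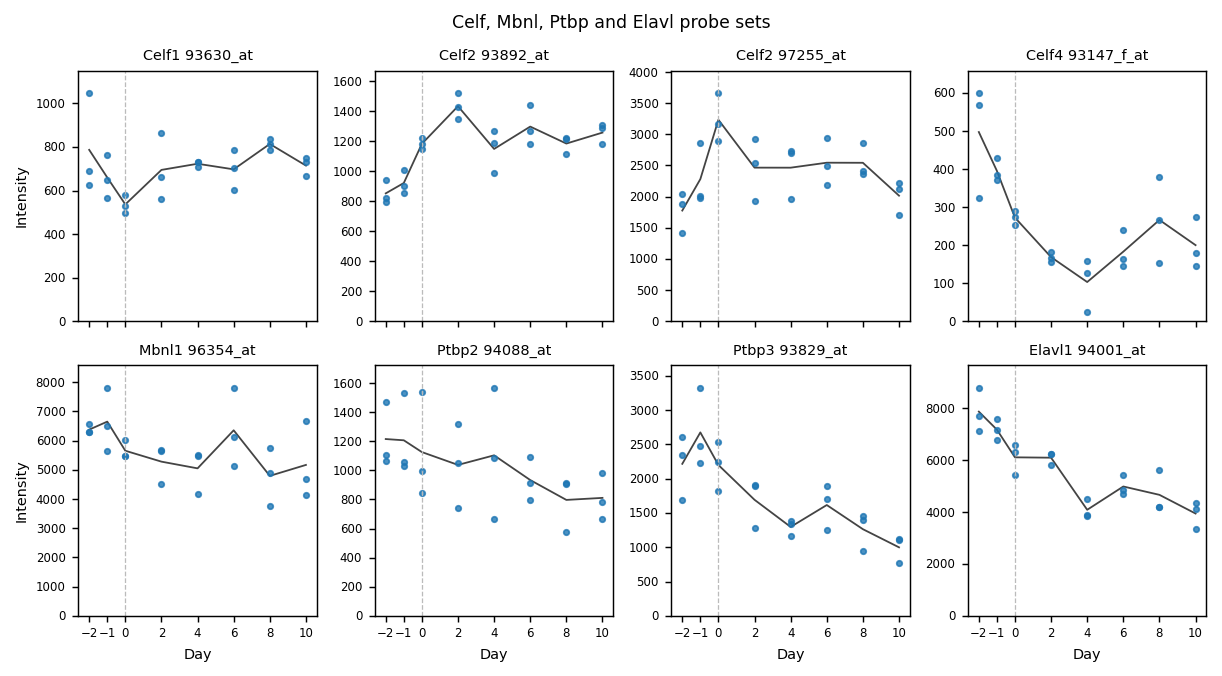
Intensity (vertical axis, linear, starting at 0) by day (horizontal axis; the dashed line marks the addition of differentiating medium) of the 8 tested Celf, Mbnl, Ptbp and Elavl probe sets; points are single arrays and lines join the means of 3. Elavl1 lay between 3358.2 and 4356.1 on day 10 and between 7117.5 and 8782.5 on day -2, while the arrays of Mbnl1 overlapped between these days.

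Calls between successive days were most numerous between days -1 and 0 and between days 2 and 4. On day 0 against day -2, 27 of 65 members were called, 5 higher and 22 lower, against 32.5% of all tested probe sets, 16.5% higher and 16.1% lower. The median log2 change was -0.27 for general parts, -0.16 for regulators and 0.01 for all tested probe sets. The regulator median was -0.41 with scan day as a fixed factor (general parts -0.30) and -0.28 with chip lot as one (general parts -0.23). Of the 22, 20 were general parts: 6 of 20 Hnrnp, 5 of 10 Sf3, 5 of 9 Snrp, 2 of 15 Srsf and 2 of 3 U2af. Srsf5, Hnrnpdl, Sf3b1 and both probe sets of Celf2 were the 5 called higher. With scan day as a fixed factor 7 of the 27 remained called, and 8.47% of all tested probe sets were called. The 7 were Snrpa1, Snrpc, Snrpe, Snrpg, Sf3b5, Hnrnpll and Srsf1 (160539_at), all lower on day 0.

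On day 2 against day 0, 13 members were called, all general parts, 3 higher and 10 lower, against 21.6% of all tested probe sets, 11.2% higher and 10.4% lower. No regulator was called by limma, with 2 of 8 at an unadjusted p under 0.05. Srsf supplied 5 of the 10 falls (Srsf2, Srsf3 by both probe sets, Srsf5 and Srsf9), Hnrnp 4 (Hnrnpa1, Hnrnpd, Hnrnpdl and Hnrnpk) and Sf3 1 (Sf3b1). Snrpa1, Sf3b6 and U2af1l4 rose. With scan day as a fixed factor 3 members were called, Sf3b6, Srsf5 and the 94017_s_at probe set of Srsf2, along with 8.22% of all tested probe sets.

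On day 10 against day 2, 26 members were called and all 26 were lower, against 13.8% of all tested probe sets, 7.26% lower and 6.52% higher. They were 24 general parts (median log2 change of all 57, -0.40) and 2 regulators (median of all 8, -0.23). Most of this step lay between days 2 and 4, when 21 members fell and 0 rose, against 13.9% of all tested probe sets called, 7.56% lower and 6.39% higher. On day 6 against day 4 only Snrpa1 was called, upward, against 0.389% of all tested probe sets, 0.248% higher and 0.141% lower. Between days 8 and 6 limma called 0 members, against 0.0471% of all tested probe sets, and between days 10 and 8 it called 0, against 0%. At the looser cut of an unadjusted p under 0.05 there were 13 and 3 members. The share of all tested probe sets at that cut is not given here. At the start, 1 member was called on day -1 against day -2, Hnrnpab by 94896_at (-0.48 ± 0.11, adjusted p = 0.00475), against 9.29% of all tested probe sets, 6.07% higher and 3.22% lower. On day 0 against day -1, 21 were called, 6 higher and 15 lower, against 25.8% of all tested probe sets, 11.9% higher and 13.9% lower. This count was 1 with scan day as a fixed factor, 4 in the largest chip lot alone, 12 with chip lot as a fixed factor, 12 without replicate 3 of day 0 and 13 without replicate 1 of day -1 or replicate 2 of day 0. With scan day as a fixed factor the call on day 10 against day 2 remained for 11 of the 26 members, Elavl1 and 10 general parts, and 3.51% of all tested probe sets were called.

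Whether a member changed differently before and after day 0 was tested directly, as the change on day 0 against day -2 minus the change on day 10 against day 0. This contrast was chosen after the levels had been seen. It was called for 21 of 65 members, against 25.3% of all tested probe sets. For 15 it was above 0 (12.9% of all tested probe sets), and 8 of these 15 were Srsf probe sets, of 15 tested: Srsf1 (104586_at), both of Srsf2, both of Srsf3, Srsf5, Srsf6 and Srsf9. No Srsf probe set was called below 0. The values were 2.55 ± 0.50 for Srsf3 on 101003_at (adjusted p = 4.79e-04), 1.61 ± 0.28 for Srsf5 (adjusted p = 1.25e-04) and 1.56 ± 0.21 for Srsf2 on 95791_s_at (adjusted p = 5.13e-06). The 6 below 0 (12.4% of all tested probe sets) were Snrpa1 (-1.76), Hnrnpll (-1.10), Celf1 (-0.93), U2af1l4 (-0.80), Sf3b5 (-0.79) and Sf3b6 (-0.74). With scan day as a fixed factor limma called 0 of the 21, and 2.44% of all tested probe sets.

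Where a batch held arrays of both days, the direction of the called members was kept. In the largest chip lot the general median was -0.27 on day 0 against day -2 (2 and 1 arrays), -0.14 on day 2 against day 0 (2 and 2), -0.53 on day 10 against day 2 (1 and 2) and -0.96 on day 10 against day -2 (1 and 1). The regulator medians in that lot were -0.28, 0.01, -0.52 and -0.79. All called members had the same sign there as over all arrays, in counts 27, 13, 26 and 47. The 2 scan days with arrays of both days gave general medians of -0.16 on day 2 against day 0 and -0.78 on day 10 against day -2, and regulator medians of -0.07 and -0.81, with the same signs of the called members. These arrays are part of those that made the calls.

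Other genes of splicing, from a list of 100 that holds no member, were set beside the families. Of these, 70 were on the array, and 81 probe sets for 67 genes were tested. On day 10 against day -2, 46 fell and 10 rose, against 22.3% of all tested probe sets lower and 22.2% higher, with a median log2 change of -0.65. Lsm2 and Lsm3, of the ring that binds the U6 RNA, were among the falls on day 0 against day -2 (-1.15 ± 0.16 and -1.31 ± 0.14), and Lsm2 was 1.85 ± 0.16 lower on the log2 scale on day 10 than on day -2 (adjusted p = 1.77e-09). Sfpq, a splicing-associated protein of paraspeckles, fell by 1.73 ± 0.29 over the same span on its probe set 102144_f_at. On day 10 against day 2, Sfpq (-1.11 ± 0.29), Syncrip (-0.91 ± 0.15), Lsm2 (-0.87 ± 0.16) and the enhancer-binding protein gene Tra2b (-0.75 ± 0.12) fell most.

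The largest rises in this list were larger than any called among the families. Srpk3, a kinase of SR proteins known from muscle, was at least 21.29-fold higher on day 10 than on day -2 (4.41 ± 0.28, adjusted p = 7.44e-12). On day -2, 2 of 3 arrays were at the floor, so this rise is a description. Srpk3 had risen by 2.85 ± 0.28 on day 2 against day 0. Rbm38, which binds messages of cell cycle arrest, was lower on day 0 than on day -2 (-1.13 ± 0.13), rose by 2.60 ± 0.13 on day 2 against day 0 and was 1.72 ± 0.13 higher on day 10 than on day -2. Ddx17, a helicase that takes part in splicing, rose by 1.78 ± 0.13 on day 0 against day -2, fell by 1.00 ± 0.13 on day 2 against day 0, and gave 1.73 ± 0.19 for the first of these on its other probe set. Rbm39 fell by 0.95 ± 0.29 on day 2 against day 0 on 94689_at, and its change on 93267_at was -0.41, which was not called.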

How the data were processed

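Total RNA of C2C12 cells was measured on 24 arrays of the type MG_U74Av2, per the file headers. The deposited values are linear intensities that the authors computed for each probe set. Their summary method is not given in the sources used here. Trimmed by 2% at both ends, the array means were 1500.9 to 1501.0, so no further scaling was done. The other kind of deposited file, array information headers, was read only for chip lots (5) and scan days (11). Names came from the platform annotation, with symbols looked up by gene identifier.

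Values under 77 (the 20th percentile) were raised to it before taking log2. Probe sets entered the tests if any daily mean exceeded 277.7 (the 40th percentile), which 8484 of 12422 did. The limma 3.58.1 model in R 4.3.3 (lmFit, contrasts.fit, eBayes with a trend) held all 8 days, with 16 residual degrees of freedom and a prior of 6.43. All tests are 2-sided. Adjustment was by Benjamini-Hochberg across the tested probe sets, and calls needed an adjusted p under 0.05. The fit was tested on simulated data. Plots used matplotlib 3.10.9 in Python 3.11.15. The number of arrays limits the precision.

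The members, the other gene lists and the comparisons were chosen with earlier results of these data known, and the contrast of changes before and after day 0 was added after the levels were seen. Values on every array are given for the tested Celf, Mbnl, Ptbp and Elavl probe sets, and for up to 4 general parts with the largest called rise and 4 with the largest called fall in each of 4 comparisons: day 0 with day -2, day 2 with day 0, and day 10 with both day 2 and day -2. Of the other splicing genes, up to 4 with the largest called change in each were named. A gene with several probe sets is represented in gene counts by the brightest. For arrays of different days, the mean correlation of deviations from the daily mean was 0.033 with the same number and -0.017 with different numbers. It was 0.064 for those of the same scan day.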

Additional observations from a re-analysis of the deposited data

How the results depend on the processing

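The count on day 10 against day -2 was the steadiest, with 36 of the 47 calls kept under all alternatives run, a general median between -0.96 and -0.83, and a regulator median between -0.79 and -0.38. All calls were kept for 6 of 27 on day 0 against day -2, 2 of 13 on day 2 against day 0, 8 of 26 on day 10 against day 2, and 0 of 21 for the changes before against after day 0. With scan day as a fixed factor (6 residual degrees of freedom) the counts were 7 on day 0 against day -2, 3 on day 2 against day 0, 11 on day 10 against day 2, 0 on day -1 against day -2, 1 on day 0 against day -1, 13 on day 4 against day 2, 0 on day 6 against day 4, and 0 before against after day 0. The same fit turned the sign of Celf1 (0.13), Hnrnpdl on 96084_at (-0.02) and Sf3b1 on 97808_at (-0.21) on day 0 against day -2, and of Celf1 (0.47) and Ptbp3 (-0.02) before against after day 0. Fewer degrees of freedom come with that fit. The arrays of day 0 shared no scan day with those of days -2 and -1, nor those of day 10 with those of day 2. In these comparisons scan day and day of the course cannot be fully told apart. The cause of the lower counts was not tested. With chip lot as a fixed factor, 2 members were called on day -1 against day -2 and 12 on day 0 against day -1. In the largest chip lot alone, 16 were called on day 0 against day -2, 15 on day 10 against day 2, 0 on day -1 against day -2 and 4 on day 0 against day -1, with fewer arrays. With the floor at the 40th percentile, 2 were called on day -1 against day -2. The cause was not tested.

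Leaving out 1 array at a time gave 49 to 52 members called over the 8 days, 20 to 27 on day 0 against day -2, 8 to 13 on day 2 against day 0, 19 to 26 on day 10 against day 2, 45 to 47 on day 10 against day -2, 14 to 22 before against after day 0, 1 on day -1 against day -2, 12 to 19 on day 0 against day -1, 16 to 22 on day 4 against day 2 and 0 to 1 on day 6 against day 4. The lowest counts came without replicate 1 of day 0 for day 2 against day 0 (8) and without replicate 3 of day 0 for day 0 against day -1 (12; 13 without replicate 1 of day -1 or replicate 2 of day 0), and the 1 call on day 6 against day 4 was lost without replicate 1 of day 6. Same-numbered arrays of different days had a mean correlation of deviations of 0.033, with 16 of 84 pairs over 0.1. The main fit did not pair arrays by number. With the replicate number as a block, the counts were 50 over the 8 days, 27, 12, 26 and 47 in the comparisons of day 0 with -2, 2 with 0, 10 with 2 and 10 with -2.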

Other observations

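Probe sets that name a splicing factor together with a pseudogene or another gene were left out of the families, since their signal cannot be assigned to 1 gene. The members were kept by annotation to a single symbol, and whether their probes also bind messages of other genes was not tested. There were 7 of them above the filter, holding Snrpa, Snrpd1, Snrpd2, Hnrnpa1 and Hnrnpa3. On day 10 against day -2, 6 of the 7 were called lower, against 22.3% of all tested probe sets (limma, adjusted over all tested probe sets). The changes were -1.07 ± 0.33 for the one that holds Snrpd1 (adjusted p = 0.0101), -0.72 ± 0.12 for Snrpa (adjusted p = 2.10e-05) and -0.69 ± 0.11 for Snrpd2 (adjusted p = 2.06e-05), with 3 arrays per day. For Hnrnpa1 they were -1.03 ± 0.29 and -0.91 ± 0.17, and for Hnrnpa3 -0.99 ± 0.13 and, not called, -0.64 ± 0.29 (adjusted p = 0.0821).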
